A study of Homo sapiens with 6 samples.

Results

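PK-1 and Panc-1 are established lines of human cancer cells from pancreatic ductal adenocarcinoma (PDAC), the common cancer of the pancreas that arises from its ductal epithelium. Their control libraries were compared with each other, 1 library per line, to describe how the lines differ at the level of transcripts before any retinoic acid receptor inhibitor was given. The study sequenced 6 libraries of polyadenylated RNA, and the 4 libraries of inhibitor-treated cells were not used. Both controls carry only the word control as their treatment in the labels, and the study's methods give dimethyl sulfoxide as the control of its culture assays. According to the study's methods, both lines came from the same cell bank and grew in the same kind of serum-containing medium. Among driver genes, the study lists an altered CDKN2A for both lines and an altered SMAD4 for PK-1 alone. Each line is a single cell line, so a difference between them is a difference between these 2 cultures and not between kinds of patients.

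The values were log2 of TPM, a transcript level scaled for transcript length and for the total of the library, with every level under 1 TPM raised to 1 TPM. A gene with that value is described here as listed at the floor, no fold is given against it, and it enters list medians as 1 TPM, so that its difference is a lower limit. Of 53826 entries, mostly genes, 14618 were above the floor in at least 1 library and made up the comparison. Differences are given as log2 TPM in PK-1 minus log2 TPM in Panc-1, so a positive value means a higher transcript level in PK-1. With 1 library per line there was no replicate error, no SD and no test, and TPM does not keep the sequencing depth, so no counting interval could be given. A call below is only a difference past 2-fold, the size the study itself used. A level that differs between the lines may come from each cell or from the mixture of cells in the dish, which bulk RNA cannot tell apart.

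Epithelial cells are held together by cadherins, desmosomes and tight junctions and are strengthened by keratin filaments. Carcinoma cells can lose these and take on mesenchymal features, such as vimentin filaments and a fibrillar matrix, under transcription factors of the ZEB, SNAIL and TWIST families. PDAC is also commonly divided into a classical subtype, with a gastrointestinal epithelial program, and a basal-like subtype with genes of stratified squamous epithelia such as the esophagus.

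The control PK-1 cells expressed epithelial adhesion, squamous keratin and basal-like genes that were listed at the floor or low in Panc-1. The control Panc-1 cells expressed vimentin, several other mesenchymal genes, some fibrillar collagens and the HOXB and HOXC genes at higher levels. Of all entries compared, 2551 were past 2-fold higher in PK-1, or 17.5%, and 2768 were past 2-fold higher in Panc-1, or 18.9%, which makes 36.4% in either direction. Those shares are the background for every list below. Past 4-fold, 1043 entries (7.14%) were higher in PK-1 and 1018 (6.96%) were higher in Panc-1. The median difference over all entries was -0.04, with an interquartile range from -0.75 to 0.68. Across the 11827 entries above the floor in both lines, which are not independent replicates, Pearson's r of the log2 TPM values was 0.840 and Spearman's rho was 0.831. The lines had similar numbers of detected entries, 13149 for PK-1 against 13296 for Panc-1.

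**Figure D1:**
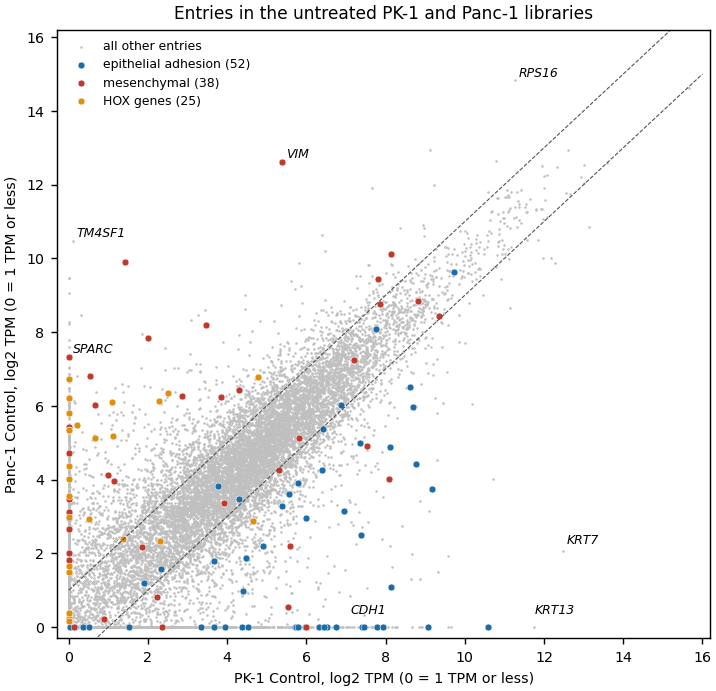
Each point is 1 entry, with its log2 TPM in PK-1 on the x axis and in Panc-1 on the y axis, and the dashed lines mark a 2-fold difference. Epithelial adhesion genes (blue) lie mostly below the lines, with 40 of 52 past 2-fold higher in PK-1, whereas HOX genes (orange) lie mostly above them, with 20 of 25 past 2-fold higher in Panc-1.

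The protein-coding genes with the largest differences on the PK-1 side included squamous and glandular epithelial genes. KRT13 (chr17:41500981-41505612, GRCh38), a keratin of the nonkeratinized layers of squamous epithelium, was at 3457 TPM in PK-1 and at the floor in Panc-1. KRT5 (chr12:52514575-52520394), the keratin of basal epithelial cells, was at 1591 TPM in PK-1 and at the floor in Panc-1. KRT7 (chr12:52233243-52255853), a keratin of ductal epithelia, was at 5663 TPM in PK-1 against 4.19 TPM in Panc-1, a log2 difference of 10.40. The cell surface adhesion glycoprotein gene CEACAM6 (chr19:41755530-41772211) was at 1539.6 TPM in PK-1 and at the floor in Panc-1. Thus 3 of these 4 genes were among abundant transcripts of PK-1 and were listed at the floor in Panc-1. Others among the largest on that side were LY6D at 799.7 TPM, KLK6 at 759 TPM, KRT17 at 487 TPM, CST6 at 479.6 TPM and ALDH3A1 at 460.3 TPM in PK-1, all listed at the floor in Panc-1. Further ones, listed there too at the floor, were CALB2 at 403 TPM, ANXA3 at 315 TPM, FXYD3 at 309 TPM, ANXA8 at 302 TPM and GPX2 at 284 TPM in PK-1. Reads of ANXA8 can be shared with its near-identical copy ANXA8L1, so that level is uncertain. Over all entries, 304 entries were at 10 TPM or more in PK-1 and at the floor in Panc-1, or 2.08%, and 238 showed the opposite, or 1.63%.

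On the Panc-1 side the leading genes included those of membrane, actin-linked and matrix proteins. TM4SF1 (chr3:149369022-149377649), a tetraspanin-like membrane protein gene, was at 1.07 TPM in PK-1 compared with 1426 TPM in Panc-1, a difference of -10.38. PPP1R14A, which encodes an inhibitor of myosin phosphatase, was at the floor in PK-1 and at 705 TPM in Panc-1. The tetraspanin gene CD81 was at the floor in PK-1 and at 529 TPM in Panc-1. TPM2 (chr9:35681993-35690056), a tropomyosin of actin filaments, was at 2.68 TPM in PK-1 against 955 TPM in Panc-1, a difference of -8.48. It lies in a stretch of 10 consecutive entries past 2-fold higher in Panc-1, at chr9:35088688-35732195. The peptidase gene ANPEP was at the floor in PK-1 and at 311 TPM in Panc-1. These 5 genes were at 2.68 TPM or less in PK-1. The metallothionein MT1E was at the floor in PK-1 and at 298 TPM in Panc-1, with the limit that metallothionein genes share much of their sequence. MSN, encoding moesin, which links actin to the membrane, was at the floor in PK-1 and at 219.7 TPM in Panc-1, and the Notch ligand gene DLL3 was at the floor in PK-1 and at 193 TPM in Panc-1. The matrix protein gene SPARC (chr5:151661096-151686915) was at the floor in PK-1 and at 160.4 TPM in Panc-1, and VIM (chr10:17228241-17237593), encoding vimentin, was at 41.7 TPM in PK-1 compared with 6291 TPM in Panc-1, a difference of -7.24. Within the 15 largest, IFITM2 was at 1.24 TPM in PK-1 against 350.4 TPM in Panc-1, with near-identical relatives that could share its reads. SELENOM, MT1A, BARX1 and ARHGAP4 were at 133, 131, 117 and 116 TPM in Panc-1, in that order, and all 4 were listed at the floor in PK-1.

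Genes of epithelial adhesion and its regulators were higher in PK-1. All 52 members of the list were above the floor in at least 1 line, 40 were past 2-fold higher in PK-1 and 1 was past 2-fold higher in Panc-1, with a median difference of 3.29. For 25 of the members, the level was above the floor in PK-1 only. Among junction proteins, CDH1, encoding E-cadherin, was at 170.1 TPM in PK-1 and at the floor in Panc-1, and CDH3, encoding P-cadherin, was at 62.5 TPM in PK-1 and at the floor in Panc-1. EPCAM, an epithelial adhesion molecule gene, was detected in both lines, at 578 TPM in PK-1 compared with 13.4 TPM in Panc-1, a difference of 5.43. The desmosomal genes DSG2 and DSP differed in the same direction, DSG2 by 4.88 and DSP by 3.04, while JUP, encoding plakoglobin of both junction types, was at 393 TPM in PK-1 against 91.5 TPM in Panc-1. Adherens junction and desmosome members had a median of 3.71, with 11 of 16 past 2-fold higher in PK-1. The exceptions included PERP at 215 TPM in PK-1 compared with 272 TPM in Panc-1 and PKP3 at 118 TPM in PK-1 against 64.4 TPM in Panc-1, which were within 2-fold.

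Tight junction and polarity members were lower in Panc-1 but more often still detected there. Of 15, 13 were past 2-fold higher in PK-1, with a median of 2.61, and 12 were above the floor in Panc-1. CLDN4, encoding a claudin that seals tight junctions, was at 415 TPM in PK-1 compared with 62.9 TPM in Panc-1, and CLDN7 was at 277 TPM in PK-1 against 29.3 TPM in Panc-1. LSR, which builds tricellular junctions, was at 438 TPM in PK-1 compared with 21.5 TPM in Panc-1. CLDN3 was the 1 member past 2-fold higher in Panc-1, at the floor in PK-1 and at 7.71 TPM in Panc-1, and OCLN, encoding occludin, was at 13.7 TPM in PK-1 against 14.1 TPM in Panc-1. Membrane proteases and trafficking genes included ST14, encoding the protease matriptase, at 245 TPM in PK-1 and at the floor in Panc-1, and RAB25, a small GTPase of epithelial recycling, at 176 TPM in PK-1 and at the floor in Panc-1. Their inhibitor genes differed from each other, since SPINT1 was at 282 TPM in PK-1 compared with 2.11 TPM in Panc-1 whereas SPINT2 was at 846 TPM in PK-1 against 797 TPM in Panc-1.

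The transcription and splicing regulators of the epithelial state showed the largest median among the 4 groups of the list, 5.73, with 9 of 11 past 2-fold higher in PK-1 and 8 above the floor in PK-1 only. ESRP1, a splicing factor gene of epithelia, was at 107 TPM in PK-1 and at the floor in Panc-1. ELF3, EHF, GRHL2 and KLF5, all encoding epithelial transcription factors, were at 92.6, 79.9, 53.2 and 55.1 TPM in PK-1, respectively, and all 4 were listed at the floor in Panc-1. OVOL2, which encodes a repressor of mesenchymal genes, was at 12.8 TPM in PK-1 and at the floor in Panc-1. GRHL1 and GRHL3 were the members within 2-fold, with differences of 0.76 and 0.71.

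Promoter sequences of 4 members are shown because they hold a motif tied to this program. ZEB and SNAIL factors bind E-box sequences of the form CAGGTG, which reads CACCTG on the other strand, and in the mesenchymal list described below ZEB1 was above the floor in Panc-1 only, at 8.65 TPM, whereas the SNAIL family gene SNAI2 was higher in PK-1, at 46.7 TPM in PK-1 compared with 1.45 TPM in Panc-1. The bases are the 250 before the annotated start, 5' to 3' on the gene's strand, from RefSeq on GRCh38.p14, with each match to either form in capitals; the forms cannot overlap each other. CRB3, a polarity gene at 15.5 TPM in PK-1 and at the floor in Panc-1, held 5 matches, AP1M2, a gene of epithelial sorting at 123 TPM in PK-1 against 8.87 TPM in Panc-1, held 3, and RAB25 and ELF3 held 1 each.
CRB3 (chr19:6464021-6464270, plus strand): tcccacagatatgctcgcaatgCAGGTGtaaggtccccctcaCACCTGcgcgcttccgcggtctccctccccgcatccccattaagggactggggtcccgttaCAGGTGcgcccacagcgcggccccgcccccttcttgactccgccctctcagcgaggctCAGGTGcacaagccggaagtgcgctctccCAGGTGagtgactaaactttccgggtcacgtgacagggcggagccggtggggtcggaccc
AP1M2 (chr19:10587313-10587562, minus strand): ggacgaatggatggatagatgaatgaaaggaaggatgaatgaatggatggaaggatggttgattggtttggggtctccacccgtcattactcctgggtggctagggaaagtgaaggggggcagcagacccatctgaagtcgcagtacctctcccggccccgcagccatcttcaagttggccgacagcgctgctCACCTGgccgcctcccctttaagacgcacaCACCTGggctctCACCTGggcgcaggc
RAB25 (chr1:156060910-156061159, plus strand): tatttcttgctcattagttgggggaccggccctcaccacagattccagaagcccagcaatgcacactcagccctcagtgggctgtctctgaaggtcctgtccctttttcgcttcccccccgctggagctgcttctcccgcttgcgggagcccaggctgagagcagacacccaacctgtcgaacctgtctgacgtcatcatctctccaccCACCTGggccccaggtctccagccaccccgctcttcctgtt
ELF3 (chr1:202010337-202010586, plus strand): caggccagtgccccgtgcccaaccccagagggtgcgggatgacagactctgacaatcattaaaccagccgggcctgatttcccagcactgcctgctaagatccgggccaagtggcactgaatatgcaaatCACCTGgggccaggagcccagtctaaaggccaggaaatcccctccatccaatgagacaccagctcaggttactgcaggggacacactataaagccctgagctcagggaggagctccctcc
Promoters were matched for 31 of the 52 list members, and 13 of those 31 held a match, or 41.9%, against 17.5% of all 27305 promoters in the table. OCLN and GRHL3, which were within 2-fold, also held 1 match each. CEACAM6, EHF, KLF5, CLDN4 and CLDN7, all past 2-fold higher in PK-1, held none. With fewer than 80% of the members matched, a comparison of the list with other promoters is void. A match describes letters in this window and says nothing of binding, which was not measured, and both the motif and the 4 genes were chosen after values of the data were seen.

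**Figure D2:**
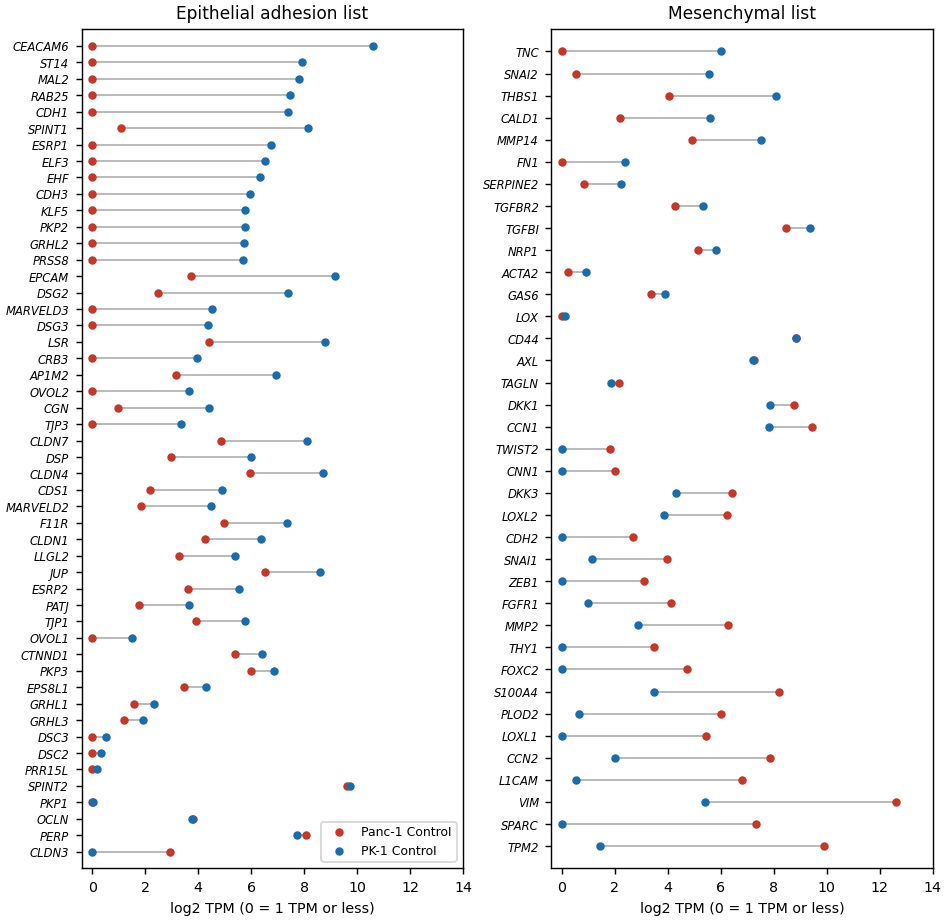
Each row is 1 gene of the epithelial adhesion list (left) or the mesenchymal list (right), with 3 members not drawn, showing its log2 TPM in PK-1 (blue) and in Panc-1 (red) joined by a line and the rows ordered by their difference. In the left panel nearly every blue point lies to the right of the red one, from CEACAM6 down, with CLDN3 as the reverse, whereas the right panel runs in both directions, from TNC (higher in PK-1) to TPM2 (higher in Panc-1).

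Mesenchymal genes were higher in Panc-1 on the whole but not throughout. Of 51 genes listed, 38 were above the floor, and 13 were listed at the floor in both lines. Of the 38, 21 were past 2-fold higher in Panc-1 and 8 were past 2-fold higher in PK-1, with a median of -1.90. Besides VIM, TPM2 and SPARC, the neural adhesion gene L1CAM was at 1.44 TPM in PK-1 compared with 112 TPM in Panc-1. S100A4, encoding a calcium-binding protein of motile cells, was at 11.1 TPM in PK-1 against 295 TPM in Panc-1. CCN2, a matricellular growth factor gene, was at 4.03 TPM in PK-1 compared with 229 TPM in Panc-1. CDH2, encoding N-cadherin, was at the floor in PK-1 and at 6.36 TPM in Panc-1, which is low beside VIM in the same library.

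Of the 5 detected transcription factors of this list, 4 were past 2-fold higher in Panc-1 and 1 was past 2-fold higher in PK-1, with a median of -2.82. ZEB1 was at the floor in PK-1 and at 8.65 TPM in Panc-1, SNAI1 was at 2.19 TPM in PK-1 against 15.5 TPM in Panc-1, FOXC2 was at the floor in PK-1 and at 26.5 TPM in Panc-1, and TWIST2 was at the floor in PK-1 and at 3.54 TPM in Panc-1. SNAI2, encoding SLUG, went the other way, at 46.7 TPM in PK-1 compared with 1.45 TPM in Panc-1, a difference of 5.01. Other mesenchymal genes higher in PK-1 included some of the matrix. TNC, encoding tenascin C, was at 63.3 TPM in PK-1 and at the floor in Panc-1, THBS1, encoding thrombospondin, was at 270.1 TPM in PK-1 against 16.3 TPM in Panc-1, and MMP14, a membrane-bound matrix protease gene, was at 184 TPM in PK-1 compared with 30.2 TPM in Panc-1. CALD1, encoding caldesmon, was at 47.6 TPM in PK-1 against 4.57 TPM in Panc-1, and FN1, encoding fibronectin, was low at 5.15 TPM in PK-1 and at the floor in Panc-1. The hyaluronan receptor gene CD44 and the receptor tyrosine kinase gene AXL were at nearly equal levels, CD44 at 455 TPM in PK-1 compared with 462 TPM in Panc-1 and AXL at 147 TPM in PK-1 against 153 TPM in Panc-1.

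Keratins separated the lines by kind. Of 55 keratin genes listed in the files, 20 were above the floor, 14 were past 2-fold higher in PK-1, and none was past 2-fold higher in Panc-1, with a median of 1.76. The simple epithelial keratins KRT8, KRT18 and KRT19 were abundant in both lines, unlike KRT7. KRT8 was at 5967 TPM in PK-1 compared with 3530.4 TPM in Panc-1, its partner KRT18 was at 6408 TPM in PK-1 against 3415 TPM in Panc-1, and KRT19 was at 3711 TPM in PK-1 compared with 1454 TPM in Panc-1, a difference of 1.35. Most squamous and basal keratins were above the floor in PK-1 alone. Besides KRT13, KRT5 and KRT17 these included KRT6A at 67.1 TPM, KRT4 at 21.8 TPM and KRT14 at 3.40 TPM in PK-1, whereas KRT15 was at 53.9 TPM in PK-1 against 15.1 TPM in Panc-1. KRT23 was at 141 TPM in PK-1 and at the floor in Panc-1, and KRT80 was at 214 TPM in PK-1 compared with 20.7 TPM in Panc-1. KRT6A, KRT6B and KRT6C are nearly identical in sequence, and their separate levels are uncertain. KRT13 and KRT4 also belong to the 12 esophagus-specific genes that the study lists with protein expression in PDAC.

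Of the 12 esophagus genes, 11 were above the floor, 8 were past 2-fold higher in PK-1 and none was past 2-fold higher in Panc-1, with a median of 4.45. FGFBP1, encoding a carrier that releases fibroblast growth factors, was at 201 TPM in PK-1 and at the floor in Panc-1. ECM1, an extracellular matrix protein gene, was at 93.9 TPM in PK-1 against 2.77 TPM in Panc-1, and PADI1, which encodes an enzyme that converts arginine to citrulline in proteins, was at 65.7 TPM in PK-1 and at the floor in Panc-1. ERO1A, encoding an oxidase of the endoplasmic reticulum, was at 83.7 TPM in PK-1 compared with 38.4 TPM in Panc-1. The exceptions were CRABP2, a retinoic acid carrier gene, at 116 TPM in PK-1 against 231 TPM in Panc-1, a difference of -0.996 and so just inside 2-fold, and GJB2, a gap junction gene, at 13.4 TPM in PK-1 compared with 19.2 TPM in Panc-1. DYNAP was listed at the floor in both lines. Most other esophagus-specific genes were not detected in either line, since 22 of 29 were at the floor in both. Of the 7 detected, 5 were past 2-fold higher in PK-1, among them FAM83A at 84.9 TPM in PK-1 and at the floor in Panc-1 and TMPRSS11E at 14.1 TPM in PK-1 and at the floor in Panc-1, and 1 was past 2-fold higher in Panc-1, HMGN4 at 43.8 TPM in PK-1 against 111 TPM in Panc-1.

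Genes of the basal-like PDAC subtype were higher in PK-1 with no reverse case past 2-fold. Of 25 genes, 22 were above the floor and 21 were past 2-fold higher in PK-1, with a median of 6.75, and 16 were above the floor in PK-1 only. S100A2, a calcium-binding protein gene of basal epithelial cells, was at 1683 TPM in PK-1 compared with 16.1 TPM in Panc-1, a difference of 6.71. SPRR1B and SPRR3, encoding proteins of the cornified envelope, were at 183 and 15.1 TPM in PK-1, and both were listed at the floor in Panc-1. VGLL1, a cofactor gene of TEAD factors, was at 111 TPM in PK-1 and at the floor in Panc-1. This list shares members with others, such as KRT6A and FGFBP1 with the esophagus list and AREG with the EGF list, so these counts overlap.

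Classical subtype genes were detected more often in PK-1 than in Panc-1. Of 24, 12 were at the floor in both lines, 10 were above the floor in PK-1 and 4 were above the floor in Panc-1. Past 2-fold, 5 were higher in PK-1 and 1 was higher in Panc-1. AGR2, a disulfide isomerase gene of secretory epithelia, was at 445 TPM in PK-1 against 208 TPM in Panc-1, a difference of 1.10. CEACAM6 and TFF1, a trefoil peptide gene at 16.9 TPM in PK-1 and at the floor in Panc-1, were above the floor in PK-1 only. The other detected members were low, such as LYZ at 4.15 TPM in PK-1 compared with 4.49 TPM in Panc-1. Among lineage transcription factors, TP63, encoding the master factor of squamous epithelium, was at 29.7 TPM in PK-1 and at the floor in Panc-1, and SOX15 was at 50.1 TPM in PK-1 against 1.33 TPM in Panc-1. KLF4 was at 33.8 TPM in PK-1 compared with 2.87 TPM in Panc-1, and FOXA1 was at 8.94 TPM in PK-1 and at the floor in Panc-1. On the Panc-1 side, NKX6-2 was at the floor in PK-1 and at 68.2 TPM in Panc-1, GATA4 was at the floor in PK-1 and at 15.6 TPM in Panc-1, and PDX1, the factor of pancreas development, was at the floor in PK-1 and at 7.29 TPM in Panc-1. SOX9 and FOXA2, factors of duct and foregut epithelium, were within 2-fold, SOX9 at 40.0 TPM in PK-1 against 63.1 TPM in Panc-1 and FOXA2 at 34.1 TPM in PK-1 compared with 54.6 TPM in Panc-1. In this list of 34 factors, 19 were above the floor, 9 past 2-fold higher in PK-1 and 4 past 2-fold higher in Panc-1.

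**Figure D3:**
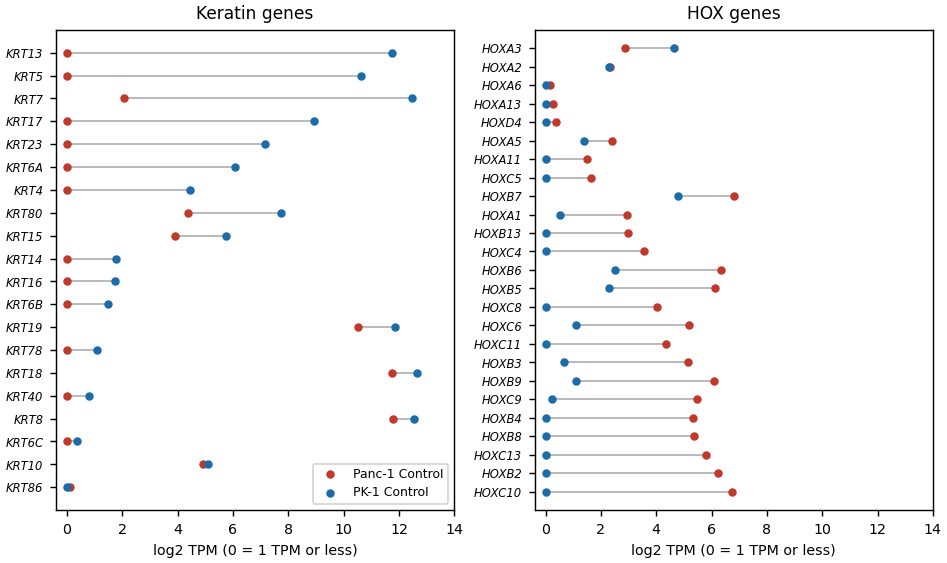
Each row is 1 keratin gene (left) or HOX gene (right), with its log2 TPM in PK-1 (blue) and Panc-1 (red). KRT13 and KRT5 sit at the floor in Panc-1 while KRT8 and KRT18 are near 12 in both lines, and most HOXB and HOXC genes are at or near the floor in PK-1, with HOXA3 as the 1 HOX gene past 2-fold higher in PK-1.

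HOX genes, which encode the homeodomain factors of body axis position and lie in 4 clusters, were higher in Panc-1. Of 39 genes, 25 were above the floor, 20 were past 2-fold higher in Panc-1 and 1 was past 2-fold higher in PK-1, with a median of -3.84. All 9 detected HOXB genes and all 8 detected HOXC genes were past 2-fold higher in Panc-1, with medians of -4.48 and -4.22. HOXC10 was at the floor in PK-1 and at 106 TPM in Panc-1, HOXB2 was at the floor in PK-1 and at 74.5 TPM in Panc-1, and HOXB7 was at 27.5 TPM in PK-1 against 111 TPM in Panc-1. The HOXA genes were mixed, with 3 of 7 past 2-fold higher in Panc-1 and HOXA3 at 25.2 TPM in PK-1 compared with 7.36 TPM in Panc-1. From the HOXD cluster only HOXD4 was detected, at the floor in PK-1 and at 1.31 TPM in Panc-1. The clusters also hold antisense genes, and whether the counting used strand was not given, so reads of overlapping antisense partners cannot be told apart.

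The EGF receptor family and its ligands drive epithelial growth, with ligands that are shed from the cell surface and bind receptor pairs. All 3 detected receptor genes were past 2-fold higher in PK-1. EGFR was at 66.3 TPM in PK-1 against 18.9 TPM in Panc-1, ERBB2 was at 56.3 TPM in PK-1 compared with 11.3 TPM in Panc-1, and ERBB3 was at 21.9 TPM in PK-1 and at the floor in Panc-1. Of the 10 detected ligand genes, 8 were past 2-fold higher in PK-1 and 1 was past 2-fold higher in Panc-1. AREG, encoding amphiregulin, was at 397 TPM in PK-1 against 2.49 TPM in Panc-1, a difference of 7.32. TGFA was at 80.8 TPM in PK-1 and at the floor in Panc-1, EREG, encoding epiregulin, was at 49.2 TPM in PK-1 compared with 1.88 TPM in Panc-1, and HBEGF was at 74.9 TPM in PK-1 against 32.2 TPM in Panc-1. The 1 ligand higher in Panc-1 was NRG2, at the floor in PK-1 and at 11.2 TPM in Panc-1. Transcripts that report activity of the MAPK pathway below these receptors did not follow the same direction. Of the 17 detected, 1 was past 2-fold higher in PK-1, the phosphatase gene DUSP4 at 18.1 TPM in PK-1 and at the floor in Panc-1, and 8 were past 2-fold higher in Panc-1. FOSL1, encoding the AP-1 subunit FRA-1, was at 229 TPM in PK-1 compared with 619 TPM in Panc-1, IER3 was at 136 TPM in PK-1 against 410.1 TPM in Panc-1, and EPHA2 was at 93.5 TPM in PK-1 compared with 245 TPM in Panc-1.

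The retinoid pathway converts retinol to retinoic acid, which binds retinoic acid receptors paired with retinoid X receptors. The study's inhibitors act on the receptor encoded by RARG. RARG was at 51.1 TPM in PK-1 against 30.1 TPM in Panc-1, a difference of 0.76 and so within 2-fold. RARA was higher in PK-1, at 33.6 TPM in PK-1 compared with 11.5 TPM in Panc-1, and RARB was listed at the floor in both lines. RARA lies in a stretch of 4 consecutive entries that spans chr17:40177010-40357643, all past 2-fold higher in PK-1. That stretch is inside the chromosome 17 window described below. RXRA was at 63.4 TPM in PK-1 against 15.8 TPM in Panc-1, a difference of 2.001, whereas RXRB was at 15.3 TPM in PK-1 compared with 27.1 TPM in Panc-1. Of 48 pathway genes, 35 were above the floor, 18 were past 2-fold higher in PK-1 and 3 were past 2-fold higher in Panc-1, with a median of 1.13.

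The synthesis and storage genes were the most one-sided group of the retinoid pathway, since all 7 detected members were past 2-fold higher in PK-1. ALDH1A3, encoding a dehydrogenase that makes retinoic acid, was at 627 TPM in PK-1 against 55.6 TPM in Panc-1, a difference of 3.50. DHRS9, encoding a retinol dehydrogenase, was at 146 TPM in PK-1 and at the floor in Panc-1, and DHRS3, encoding an enzyme that turns retinal back to retinol, was at 117 TPM in PK-1 compared with 26.4 TPM in Panc-1. Carriers were mixed. FABP5, a fatty acid binding protein that also carries retinoic acid, was at 516 TPM in PK-1 against 234 TPM in Panc-1, a difference of 1.14. RBP7, a retinol carrier gene, was at the floor in PK-1 and at 55.5 TPM in Panc-1. CRABP2, also counted among the esophagus genes, was higher in Panc-1, though within 2-fold. Among coregulators and targets, TGM2, a transglutaminase gene that retinoic acid is known to induce, was at 1167 TPM in PK-1 compared with 66.2 TPM in Panc-1, and NRIP1 was at 23.8 TPM in PK-1 against 2.72 TPM in Panc-1. The degradation gene CYP26B1 was low in both lines, at 9.12 TPM in PK-1 compared with 5.63 TPM in Panc-1, and the related CYP2S1 was at 99.1 TPM in PK-1 against 10.7 TPM in Panc-1.

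TGF-beta signaling acts through type I and II receptors and SMAD proteins, with SMAD4 as the common partner. SMAD4 was listed at the floor in PK-1 and at 4.85 TPM in Panc-1. Genes near SMAD4 on chromosome 18 were detected in PK-1, with ME2 at 23.6 TPM in PK-1 compared with 19.1 TPM in Panc-1 and ELAC1 at 5.61 TPM in PK-1 against 2.42 TPM in Panc-1. Of the 20 listed neighbors, a list that includes SMAD4 itself, 14 were above the floor, 4 were past 2-fold higher in PK-1 and 1 was past 2-fold higher in Panc-1. Target genes of the pathway had a median of -1.92, with 6 of 10 past 2-fold higher in Panc-1 and 2 past 2-fold higher in PK-1. The inhibitor of differentiation genes were all higher in Panc-1, with ID1 at 200.4 TPM in PK-1 compared with 732 TPM in Panc-1, ID3 at 24.6 TPM in PK-1 against 262 TPM in Panc-1 and ID2 at the floor in PK-1 and at 25.1 TPM in Panc-1. The 2 targets higher in PK-1 were the basement membrane collagens COL4A1 and COL4A2. Receptors were within 2-fold for 7 of 11, and TGFBR2 was at 39.6 TPM in PK-1 compared with 19.2 TPM in Panc-1. Ligands ran both ways, with BMP4 at 30.0 TPM in PK-1 and at the floor in Panc-1 and TGFB1 at 130.0 TPM in PK-1 against 56.6 TPM in Panc-1 on the PK-1 side, and INHBB at the floor in PK-1 and at 22.8 TPM in Panc-1 and BMP7 at the floor in PK-1 and at 12.4 TPM in Panc-1 on the Panc-1 side.

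Among the other PDAC driver genes, CDKN2A was listed at the floor in both lines. Its neighbor MTAP, a gene of adenine salvage, was at 36.9 TPM in PK-1 compared with 3.49 TPM in Panc-1, a difference of 3.40. KDM6A, encoding a histone demethylase, was at 1.03 TPM in PK-1 against 6.18 TPM in Panc-1, and ARID1A, encoding a chromatin remodeling subunit, was at 18.7 TPM in PK-1 compared with 45.6 TPM in Panc-1. MYC was at 139 TPM in PK-1 against 78.4 TPM in Panc-1, within 2-fold.

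Cell cycle genes differed little between the lines beside the contrast in lineage genes. All 43 S phase genes were detected, of which 7 were past 2-fold higher in PK-1 and none was past 2-fold higher in Panc-1, and the median was 0.12. PCNA, encoding the DNA polymerase clamp, was at 672 TPM in PK-1 compared with 307 TPM in Panc-1, and CDC6, a replication licensing gene, was at 189 TPM in PK-1 against 42.8 TPM in Panc-1. Each lies in a stretch of 4 consecutive entries past 2-fold higher in PK-1. That of PCNA is on chromosome 20 and includes PCNA-AS1, and that of CDC6 is on chromosome 17 and includes RARA. Of 54 G2 and M phase genes, 1 was past 2-fold higher in PK-1 and 4 were past 2-fold higher in Panc-1, with a median of -0.22. MKI67, the gene of the proliferation marker Ki-67, was at 41.8 TPM in PK-1 compared with 93.5 TPM in Panc-1. MKI67 lies in a stretch of 5 consecutive entries on chromosome 10, all past 2-fold higher in Panc-1. Among the regulators that the study followed, CDK2 was at 160.1 TPM in PK-1 against 94.7 TPM in Panc-1, CDK4 at 386 TPM in PK-1 compared with 293 TPM in Panc-1 and CDK6 at 28.8 TPM in PK-1 against 23.1 TPM in Panc-1, all within 2-fold. The CDK inhibitor gene CDKN1A was at 36.1 TPM in PK-1 compared with 86.1 TPM in Panc-1, higher in Panc-1 by -1.25, whereas CDKN1B was at 36.2 TPM in PK-1 against 24.3 TPM in Panc-1. The largest differences in this list were in CCND2, encoding cyclin D2, at 61.9 TPM in PK-1 and at the floor in Panc-1, and CDKN2C, an inhibitor of CDK4 and CDK6, at 9.89 TPM in PK-1 compared with 62.0 TPM in Panc-1.

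Matrix genes ran in both directions and did not divide cleanly by type. Of 44 collagen genes, 22 were above the floor, 13 were past 2-fold higher in Panc-1 and 6 were past 2-fold higher in PK-1, with a median of -1.49. Some fibrillar and microfibrillar collagens were on the Panc-1 side. COL5A2 was at the floor in PK-1 and at 63.6 TPM in Panc-1, and COL6A2 was at the floor in PK-1 and at 35.2 TPM in Panc-1. COL1A1 was at 3.21 TPM in PK-1 against 52.4 TPM in Panc-1. The fibrillar collagens COL1A2 and COL3A1 were listed at the floor in both lines. COL18A1 was the most abundant collagen transcript of Panc-1, at 21.9 TPM in PK-1 compared with 510.2 TPM in Panc-1. The hemidesmosome collagen COL17A1 and the basement membrane collagen COL4A6 were on the PK-1 side, COL17A1 at 188 TPM in PK-1 and at the floor in Panc-1 and COL4A6 at 33.1 TPM in PK-1 and at the floor in Panc-1. Subunits of the epithelial laminin-332 showed the same side as COL17A1. LAMA3 was at 48.5 TPM in PK-1 and at the floor in Panc-1, and LAMB3 was at 175 TPM in PK-1 against 1.26 TPM in Panc-1. LAMB2 was the reverse, at the floor in PK-1 and at 32.2 TPM in Panc-1. ITGB4, whose product binds laminin-332 in hemidesmosomes, was at 104 TPM in PK-1 compared with 3.14 TPM in Panc-1, and its partner ITGA6 was at 267 TPM in PK-1 against 54.2 TPM in Panc-1. ITGA5, part of the fibronectin receptor, was at 9.75 TPM in PK-1 compared with 87.4 TPM in Panc-1. ITGB1, the subunit shared by most integrins, was within 2-fold, at 811 TPM in PK-1 against 509.7 TPM in Panc-1.

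Genes of antioxidant defense that NRF2 controls were more often higher in PK-1. All 23 were detected, 12 were past 2-fold higher in PK-1 and 2 were past 2-fold higher in Panc-1, with a median of 1.31. ALDH3A1, an aldehyde dehydrogenase gene, and GPX2, a glutathione peroxidase gene, were above the floor in PK-1 only. NQO1, a quinone reductase gene, was at 564 TPM in PK-1 compared with 193 TPM in Panc-1, a difference of 1.55. AKR1C3 was at 119 TPM in PK-1 and at the floor in Panc-1, and AKR1C1 and AKR1C2 were also above the floor in PK-1 only, but these 3 genes are close in sequence and their levels are uncertain. The 2 reverse cases were HMOX1, encoding heme oxygenase, at 17.8 TPM in PK-1 against 113 TPM in Panc-1, and TALDO1, encoding transaldolase, at 226 TPM in PK-1 compared with 506 TPM in Panc-1. TALDO1 lies in a stretch of chromosome 11 described below in which most genes were higher in Panc-1. Likewise, AKR1C1, AKR1C2 and AKR1C3 lie in a stretch of 6 consecutive entries on chromosome 10, all past 2-fold higher in PK-1.

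Secreted inflammatory genes ran in both directions. Of 14 detected interleukins, 6 were past 2-fold higher in PK-1 and 3 past 2-fold higher in Panc-1, and of 9 detected CXC and CC chemokines, 2 were past 2-fold higher in PK-1 and 5 past 2-fold higher in Panc-1. IL1B was at 239 TPM in PK-1 and at the floor in Panc-1, IL1A was at 101 TPM in PK-1 and at the floor in Panc-1, and the receptor antagonist gene IL1RN was at 40.7 TPM in PK-1 and at the floor in Panc-1, while IL18 was similar in both, at 134 TPM in PK-1 against 130.0 TPM in Panc-1. Of the chemokines, CCL2, which attracts monocytes, was at the floor in PK-1 and at 112 TPM in Panc-1, and CX3CL1 was at the floor in PK-1 and at 65.2 TPM in Panc-1, whereas CXCL16 was at 27.6 TPM in PK-1 compared with 5.12 TPM in Panc-1. The interleukin gene IL32 was at the floor in PK-1 and at 18.7 TPM in Panc-1. F3, encoding tissue factor, the starter of coagulation, was at 468 TPM in PK-1 against 2.49 TPM in Panc-1, a difference of 7.55. Interferon response genes ran in both directions, with 9 of 26 past 2-fold higher in PK-1 and 6 past 2-fold higher in Panc-1. BST2, encoding tetherin, was at 277 TPM in PK-1 compared with 4.60 TPM in Panc-1, and OAS1 was at 34.7 TPM in PK-1 against 1.27 TPM in Panc-1. IFITM3 was at 327 TPM in PK-1 compared with 1824 TPM in Panc-1, with reads that IFITM2 may share. Antigen presentation genes were detected in both lines, with B2M, encoding the light chain of class I molecules, at 2233 TPM in PK-1 against 1019.7 TPM in Panc-1.

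Zinc finger genes named ZNF formed the largest family examined and were lower in PK-1. Of 509, 432 were above the floor, 140 were past 2-fold higher in Panc-1 and 28 were past 2-fold higher in PK-1, with a median of -0.52. The 208 detected on chromosome 19 had 83 past 2-fold higher in Panc-1 and 5 past 2-fold higher in PK-1. The 224 on other chromosomes had 57 and 23, with a median of -0.32. A group of 28 neuroendocrine and neuronal genes had 11 detected members, of which 6 were past 2-fold higher in Panc-1 and none in PK-1. TUBB3, a neuronal tubulin gene, was at 90.9 TPM in PK-1 compared with 371 TPM in Panc-1, and SYP, encoding synaptophysin of secretory vesicles, was at the floor in PK-1 and at 11.3 TPM in Panc-1.

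**Figure D4:**
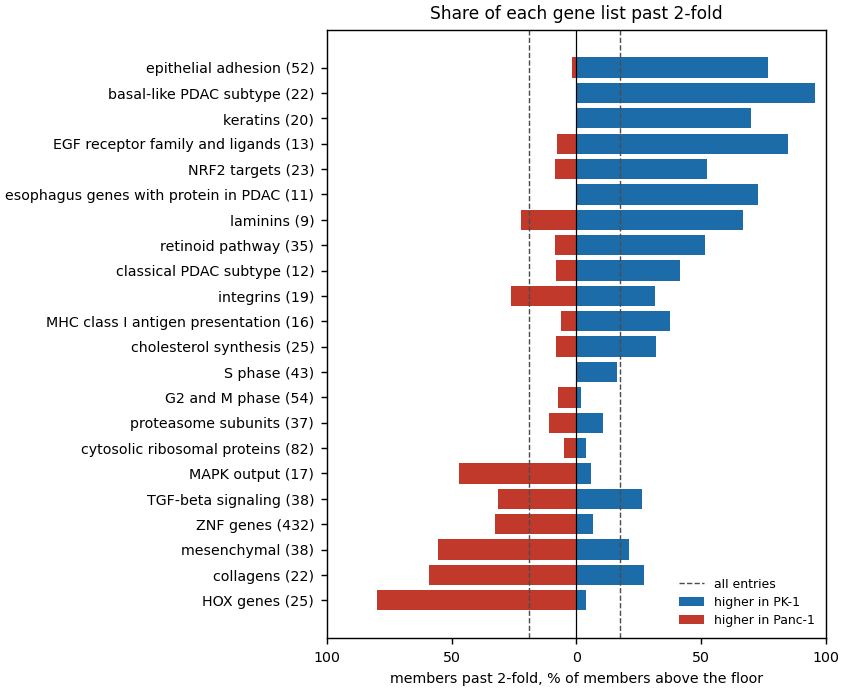
Bars give the percentage of each list's detected members, with the number detected in parentheses, that were past 2-fold higher in PK-1 (blue, right) or in Panc-1 (red, left), and dashed lines give the same for all entries, 17.5% and 18.9%. The epithelial adhesion and basal-like lists extend far past the line on the right and the HOX list on the left, while the S phase, G2 and M phase and ribosomal protein lists stay inside both lines.

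Markers of ductal epithelium were detected in both lines, though not all of them, and most markers of other pancreatic and stromal cells were listed at the floor. Of 10 duct markers, 8 were above the floor, including KRT19, KRT18, KRT8 and SOX9 in both lines, whereas KRT7 and CDH1 were high only in PK-1. In Panc-1 the summed level of the 10 was 8509.9 TPM against 22539 TPM in PK-1. MUC1, encoding a mucin of ductal epithelium, was at 1.02 TPM in PK-1 against 29.3 TPM in Panc-1. Of 10 acinar markers 1 was above the floor, PRSS1 at 1.06 TPM in PK-1, and of 8 islet markers 1 was. Endothelial markers had 1 of 6 above the floor, EGFL7 at 24.0 TPM in PK-1 compared with 30.3 TPM in Panc-1. Fibroblast markers had 1 of 8 above the floor, COL1A1, with COL1A2, COL3A1, DCN, LUM and PDGFRA among those listed at the floor in both lines. Of 8 leukocyte markers 5 were above the floor, with a summed level of 256 TPM in Panc-1 against 29.4 TPM in PK-1. Most of the Panc-1 sum was CD68, a lysosomal protein gene also expressed outside leukocytes, at 19.8 TPM in PK-1 against 244 TPM in Panc-1. PTPRC, the common leukocyte antigen gene, and CD3E were listed at the floor in both.

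Some levels in the files limit what the floor means. All 13 protein-coding genes of the mitochondrial genome were listed at the floor in both lines, although every such cell uses them, so a value at the floor is only a listed value. ACTB, the reference gene of the study's PCR, was at 6268 TPM in PK-1 compared with 7809 TPM in Panc-1, and ribosomal proteins had 3 of 82 detected members past 2-fold higher in PK-1, with 4 on the Panc-1 side. RPS16 was 1 of those 4 and far above the others in level, at 2471 TPM in PK-1 against 29221 TPM in Panc-1, a difference of -3.56. FBL, encoding the nucleolar methyltransferase fibrillarin, was at 559 TPM in PK-1 compared with 7839.6 TPM in Panc-1. RPS16 and FBL lie close together on chromosome 19. The 3 ribosomal protein genes past 2-fold higher in PK-1 were RPL19 at 4035 TPM in PK-1 against 1033 TPM in Panc-1, RPL23 at 4640.2 TPM in PK-1 compared with 1022 TPM in Panc-1 and RPL27 at 1927 TPM in PK-1 against 700.0 TPM in Panc-1, and all 3 lie on chromosome 17 in stretches where consecutive entries were past 2-fold higher in PK-1. RPLP2, at 1766 TPM in PK-1 compared with 6361 TPM in Panc-1, lies in the chromosome 11 stretch described below.

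Differences were not spread evenly along the genome. Placed on GRCh38 and taken with a mean of at least 5 TPM, 10636 entries gave a background of 16.4% past 2-fold higher in PK-1 and 17.3% higher in Panc-1. Chromosome 6 had the lowest median, -0.76, with 195 of 507 entries past 2-fold higher in Panc-1. Chromosomes 19 and 11 followed with medians of -0.46 and -0.43. The highest medians were 0.56 on chromosome 14 and 0.52 on chromosome 13. Gene copy number was not analysed here, and its part in these differences was not tested.

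The longest stretch of consecutive entries past 2-fold in the same direction lay on chromosome 19. At chr19:38878555-40285345, 29 entries in a row from SIRT2 to AKT2 and MIR641, which lies within AKT2, were past 2-fold higher in Panc-1, with a median of -3.56 and the smallest difference still 1.84 in size. AKT2, encoding a survival kinase, was at 56.0 TPM in PK-1 against 944 TPM in Panc-1. PAK4, encoding a kinase of the actin cytoskeleton, was at 93.6 TPM in PK-1 compared with 355 TPM in Panc-1. SUPT5H, a transcription elongation factor gene, was at 88.0 TPM in PK-1 against 1171 TPM in Panc-1, and the proteasome gene PSMC4 was at 202 TPM in PK-1 compared with 3841 TPM in Panc-1. DLL3, DYRK1B, RPS16 and FBL lie in the same stretch, and DYRK1B, a kinase gene, was at 5.38 TPM in PK-1 against 125 TPM in Panc-1. Several unrelated functions were thus represented among neighbors that shared a direction. The window of 50 entries with the lowest median of all, -2.88, was chr19:36214723-40285345. In it, 39 entries were past 2-fold higher in Panc-1 and none was past 2-fold higher in PK-1. PPP1R14A lies in this window.

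Chromosome 11 held the next lowest window, chr11:207708-2929420, with a median of -2.005 and 44 of 50 entries past 2-fold higher in Panc-1. CD81 and IFITM2 lie there, and so does H19, an imprinted noncoding RNA gene, at the floor in PK-1 and at 72.8 TPM in Panc-1. Its unbroken stretch of 19 entries ran from TALDO1 to CTSD at chr11:747464-1763927. CTSD, encoding a lysosomal protease, was at 425 TPM in PK-1 compared with 1013 TPM in Panc-1, and CD151, encoding a tetraspanin that binds integrins, was at 286 TPM in PK-1 against 904 TPM in Panc-1. A window at the end of chromosome 10 held BNIP3, a hypoxia-responsive mitophagy gene, at the floor in PK-1 and at 102 TPM in Panc-1, together with NKX6-2.

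On the PK-1 side the highest window was chr17:35809484-40501623, with a median of 1.79 and 40 of 50 entries past 2-fold higher in PK-1 and none past 2-fold higher in Panc-1. TNS4, which encodes a tensin of focal adhesions, was at 225 TPM in PK-1 and at the floor in Panc-1, and GRB7, an adaptor gene next to ERBB2, was at 23.8 TPM in PK-1 and at the floor in Panc-1. Within this window ran an unbroken stretch of 17 entries from ZNHIT3 to ARHGAP23 and another of 12 from MLLT6 to STARD3, and CDK12, a transcriptional kinase gene of the latter, was at 44.3 TPM in PK-1 compared with 13.5 TPM in Panc-1. ERBB2 lies in the same window and is also a member of the EGF list. Chromosome 13 held the second highest window, chr13:73054976-112887168, with a median of 1.40, and included KLF5. An unbroken stretch of 21 entries from POGLUT2 to GRTP1 lay at chr13:102784281-113364148, with LAMP1, a lysosomal membrane gene, at 319.6 TPM in PK-1 against 127 TPM in Panc-1. Neighboring entries can overlap, such as BIVM-ERCC5 with BIVM and ERCC5, and then do not count as separate genes. The HOXC and HOXB clusters each formed a stretch of 11 entries higher in Panc-1, antisense genes and flanking genes included.

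**Figure D5:**
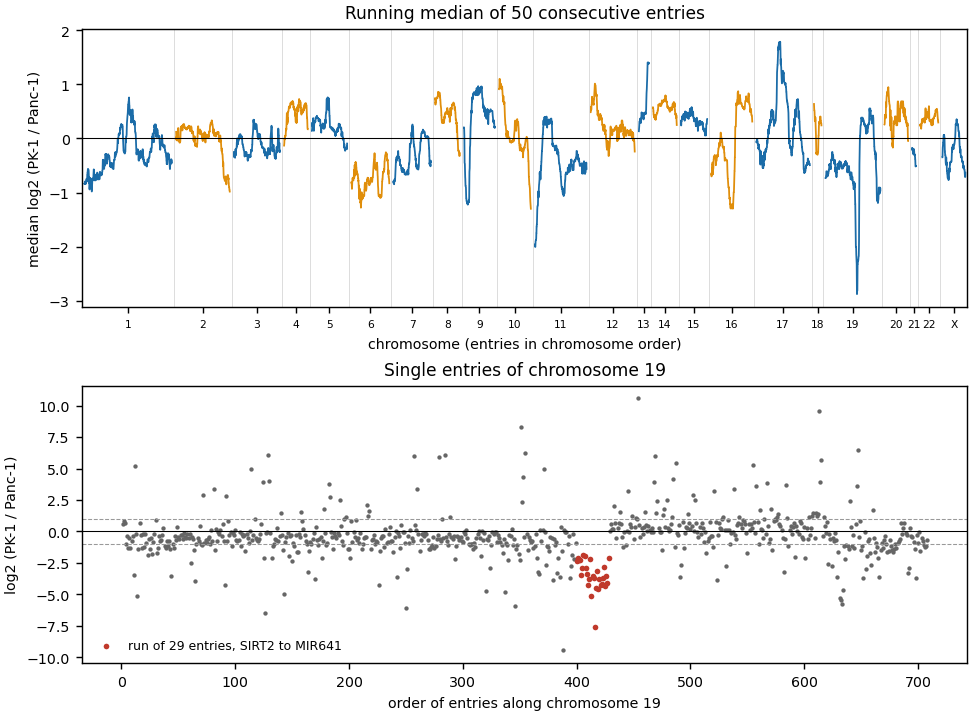
The upper panel gives the running median of the log2 difference (PK-1 minus Panc-1) over 50 consecutive entries along each chromosome, and the lower panel gives single entries of chromosome 19 in their order, with the stretch of 29 in red and dashed lines at 2-fold. The lowest point is on chromosome 19, at -2.88, and the highest is on chromosome 17, at 1.79.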

How the data were processed

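The control libraries of the PK-1 and Panc-1 cell lines were compared, 1 per line, grouped by the labels. Total RNA had been extracted and polyadenylated RNA sequenced after stranded library preparation. The authors deposited log2 TPM values per gene entry, with levels under 1 TPM raised to 1 TPM, which is log2 0. The submitters' processing notes name hg38. The aligner, the counting tool, the gene annotation and the use of strand are not given in the sources used here. Counts were not analysed, so depth is unknown.

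From the deposited values, the difference PK-1 minus Panc-1 was computed on the log2 scale with Python 3.11.15, numpy 2.4.6 and pandas 2.3.3, and figures were drawn with matplotlib 3.10.9. No pseudocount was added, and entries at the floor in both lines were left out. A call was a difference past 2-fold. Against the floor a difference is a lower limit, and a listed floor may also be a failed estimate. Entries were matched to RefSeq (GRCh38.p14) by Entrez number for 95.4% of those listed, which also restored 27 symbols that had turned into dates. For a symbol with several entries, the entry with the highest mean TPM was used. Positions used entries with a mean of at least 5 TPM on chromosomes 1 to 22 and X, in windows of 50. The labels of the treated libraries, and their values, were not used.

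The lists, families and compared lines were chosen with earlier results of these data known. Genes were named by a rule, namely the 15 largest protein-coding differences per direction at 10 TPM or more, the 10 most abundant entries, up to 4 most abundant and up to 4 most different members of each list per direction, genes the study follows, cell type markers, and the leading genes of the extreme windows. Some genes that meet the rule are not reported here. Other genes named, the runs of consecutive entries, the promoters and the splits of ZNF and HOX genes were chosen after their values were seen. Alternatives were a pseudocount of 1 TPM, a minimum of 5 TPM, a fold of 4, 1 entry per symbol, and 2 rescalings of Panc-1, by the median ratio and by totals without the 20 most abundant, mitochondrial and ribosomal entries.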

Additional observations from a re-analysis of the deposited data

How the results depend on the processing

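No named difference or median past 2-fold changed direction with a pseudocount of 1 TPM, under either rescaling or, where members were left, with a minimum of 5 TPM. The use of 1 entry per symbol changed no value, since no symbol had more than 1 entry above the floor. The rescalings, which act on all entries alike, raised the differences of entries above the floor by 0.027 and 0.054 on the log2 scale, and the counts past 2-fold then came to 2632 and 2685, or 2712 and 2610, for higher in PK-1 and higher in Panc-1. A pseudocount of 1 TPM gave 2131 and 2299, and it moved the list medians to 3.14 for CEACAM genes, -3.11 for HOX genes, 2.78 for UGT genes, 6.004 for basal-like genes, 3.51 for esophagus genes with protein in PDAC and 1.15 for kallikreins. It also moved 199 of 517 named differences by 1.5-fold or more. A pseudocount shrinks differences near the floor by construction. Keeping only entries at 5 TPM or more in 1 of the lines dropped low members. Medians then came to -4.22 for chemokines, 6.05 for UGT genes, 3.34 for aldo-keto reductases, 3.40 for classical genes, 2.13 for claudins, -2.68 for clustered protocadherins, -3.68 for collagens, 5.08 for esophagus genes with protein in PDAC, 3.55 for other esophagus genes, 5.72 for kallikreins, 4.45 for keratins and -2.99 for leukocyte markers. Under that setting the medians of MMPs and TIMPs (1.66), SOX genes (0.90) and gap junction genes (0.59) were above 0, while they were -0.50, -0.66 and -0.11 with all entries. Past 4-fold, 1043 entries were higher in PK-1 and 1018 in Panc-1.

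No paired analysis was possible because each line had 1 library, which also left no replicate to leave out. Depth could not be read from TPM, so how precisely low levels were measured is unknown, and differences near 1 TPM are the least certain. Passage and harvest of the sequenced controls are not given in the sources used here and cannot be told apart from the lines.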

Other observations

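Several families that appear in no comparison above also differed between PK-1 and Panc-1. All 7 detected kallikrein genes, a cluster of secreted serine proteases, were above the floor in PK-1 only, with KLK6 as the highest and KLK10 at 52.6 TPM. Among serpins, which inhibit such proteases, SERPINB5, encoding maspin, was at 110.0 TPM in PK-1 and at the floor in Panc-1. UGT1A10 and UGT1A6, genes of glucuronidation that share exons and so share reads, were above the floor in PK-1 only, at 94.2 and 46.6 TPM. TIMP3, a protease inhibitor gene of the matrix, was at 80.5 TPM in PK-1 and at the floor in Panc-1, whereas MMP2 was at 7.30 TPM in PK-1 compared with 77.7 TPM in Panc-1.

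S100 genes, which encode small calcium-binding proteins, ran both ways. S100A14 was at 252 TPM in PK-1 and at the floor in Panc-1, and S100A6 was at 1533 TPM in PK-1 against 3583 TPM in Panc-1. WNT ligands did as well, with WNT7A at 49.8 TPM in PK-1 and at the floor in Panc-1 and WNT5B at the floor in PK-1 and at 84.4 TPM in Panc-1. Targets of YAP and TEAD were split, with 4 of 21 detected members past 2-fold higher in PK-1 and 7 past 2-fold higher in Panc-1, and IGFBP3 at 113 TPM in PK-1 compared with 1.95 TPM in Panc-1. The ephrin ligand EFNB2 was at 56.0 TPM in PK-1 against 2.36 TPM in Panc-1. Glycolysis and hypoxia genes had 8 of 29 past 2-fold higher in PK-1 and 3 past 2-fold higher in Panc-1, with GAPDH at 8194 TPM in PK-1 compared with 4237 TPM in Panc-1 and HK2, a hexokinase gene, at 50.8 TPM in PK-1 against 8.91 TPM in Panc-1. Cholesterol synthesis genes had 8 of 25 past 2-fold higher in PK-1, with 2 on the other side, and SREBF2, encoding a regulator of the pathway, was at 47.8 TPM in PK-1 compared with 14.5 TPM in Panc-1. No member of the 26 MAGE genes, antigens of testis and tumors, was above the floor in either line.

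The most abundant entries of both lines included MIR6723, MIR4461 and MTRNR2L2, whose sequences resemble the mitochondrial genome. MIR6723 was at 52172 TPM in PK-1 against 25351 TPM in Panc-1, MIR4461 was at 12373 TPM in PK-1 compared with 6154 TPM in Panc-1, and MTRNR2L2 was at 8968 TPM in PK-1 against 1846 TPM in Panc-1. The 13 protein-coding genes of the mitochondrial genome were listed at the floor in the same libraries, and whether reads of one were counted for the other was not tested.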
